A study of Mus musculus and Homo sapiens with 15 samples.

Results

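Mbp, Mobp, Mog, Mag and Cnp, which encode proteins of the myelin sheath, were followed through the C-to-U edits of INSCRIBE in mouse brain. The edit clusters whose label names 1 of these 5 genes were taken from the 9 brain libraries, together with the edit sites inside them on the same strand. There were 842 such clusters of 1669120, with 982 filtered sites of 2029726 and 1105 edited reads of 2463640. Mbp held 465 clusters and 620 edited reads, Mobp 255 and 318, Mog 48 and 63, Mag 51 and 63, and Cnp 23 and 41. Of the 255 Mobp clusters, 207 also named the predicted genes Gm37111, Gm38642 or Gm47059, which overlap Mobp on its strand, so edits there cannot be assigned to Mobp alone. No cluster of the other 4 genes named a second gene.

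In INSCRIBE the deaminase APOBEC1, joined to a nanobody that holds an antibody, is placed beside an RNA-binding protein in fixed tissue, and cytidines that it converts there are read as T after sequencing. RBFOX2-INSCRIBE slices (n = 3) received rabbit antibody to RBFOX2 and the enzyme, enzyme-only slices (n = 3) received the enzyme without antibody, and buffer-only slices (n = 3) received neither. All 9 were single coronal slices, fixed with paraformaldehyde, from 2-month-old female C57BL/6J wild-type mice. The methods of the study name 2 mice and its reporting summary a single mouse, so slices share animals. The p-values here measure only the spread between slices, which may be technical, and would be too small if read as a test over animals. Whole slices were used, with no selection of oligodendrocytes.

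Myelin is the lipid-rich membrane that oligodendrocytes wrap around axons in the central nervous system. Myelin basic protein (Mbp) holds the cytoplasmic faces of the membrane together, and its mRNA is carried into oligodendrocyte processes and translated there. Mobp encodes a second small basic protein of compact myelin, Mog a glycoprotein of the outermost myelin surface, Mag an adhesion glycoprotein of the layer facing the axon, and Cnp a phosphodiesterase of the non-compact cytoplasmic channels. RBFOX2 is a splicing regulator that binds UGCAUG, and APOBEC1 acts best on a C that follows A or U.

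The sites of Mobp, Mog, Mag and Cnp found in the most libraries are shown with 14 bases on each side, 5′ to 3′ on the strand of the gene, with the edited C in capitals. The sequences are from the RefSeq GRCm38.p6 genome, the build of the files, in which all 3124589 listed positions on its chromosomes were a C on their strand. The first 4 are the leading filtered site of each gene, and the last 2 are the sites of Mag and Cnp listed in the most libraries before the filter.
Mobp intron, chr9:120171200-120171228, plus strand: tttcttccgatctcCtaggtgggaaatct
Mog coding exon, chr17:37020409-37020437, minus strand: ggctacacctgcttCttcagagaccactc
Mag 3′ UTR, chr7:30899340-30899368, minus strand: ctgttcctccttgcCaacattccttgcct
Cnp 3′ UTR, chr11:100581369-100581397, plus strand: ctccagcagcatgtCtctgctgtgtggat
Mag coding exon, chr7:30911712-30911740, minus strand: atgccctcgaccatCtcagccttcgaggg
Cnp 3′ UTR, chr11:100581618-100581646, plus strand: gctaattgggttgtCacccgagaatctgg

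The Mobp site was the single position of the 5 genes that passed the filter in 3 or more libraries, 1 of 946 filtered positions (0.106%), against 4776 of 1956700 (0.244%) over all genes. It was edited in 2 of 17, 4 of 21 and 1 of 18 covering reads in RBFOX2-INSCRIBE, in 1 of 14, 1 of 25 and 1 of 8 reads in enzyme-only, and in 1 of 12 reads in 1 buffer-only library. The edited share was 11.8%, 19.0% and 5.56% in RBFOX2-INSCRIBE, 7.14%, 4.0% and 12.5% in enzyme-only and 8.33% in that buffer-only library. The exact binomial 95% intervals were wide and overlapped, from 5.45% to 41.9% at the highest share and from 0.101% to 20.4% at the lowest, and they cover counting error only. The site lists hold only positions with at least 1 edited read, so the share at this position in the other 2 buffer-only libraries is unknown.

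The remaining printed sites rested on few reads. The Mog site was edited in 1 of 55 reads in 1 RBFOX2-INSCRIBE library and 2 of 47 reads in 1 enzyme-only library. The leading Mag site was listed in 1 buffer-only library, with 3 of 155 reads. The Mag coding site was edited in 2 of 138 reads in RBFOX2-INSCRIBE, 1 of 188 and 1 of 219 in enzyme-only, and 1 of 252 and 1 of 193 in buffer-only. The first Cnp site was edited in 1 of 260 reads in RBFOX2-INSCRIBE, and in 4 of 233 and 2 of 185 in enzyme-only. The second was more deeply covered, with 1 of 1229 and 4 of 1222 in RBFOX2-INSCRIBE and 1 of 992, 2 of 1166 and 3 of 892 in enzyme-only, and it was listed in no buffer-only library. None of these sites was found in every library of a group except the second Cnp site in enzyme-only, so their presence or absence in a group was not separable from sampling at this depth.

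Most edited reads of the myelin genes were removed by the site filter of the study, which keeps sites with a confidence score above 0.5 and an edited fraction below 0.8. The score falls as more unedited reads cover a site: with 1 edited read, the highest cover that passed was 69 reads and the lowest that failed was 70. Of the listed edited reads within the annotated genes, 10.6% passed for Mbp (626 of 5906), 20.3% for Mobp (286 of 1410), 45.3% for Mog (63 of 139), 13.8% for Mag (63 of 458) and 5.74% for Cnp (42 of 732). Over all positions of the 9 libraries 42.9% passed. The median cover of a listed site was 3142 reads for Mbp, 554 for Mobp, 96 for Mog, 235.5 for Mag and 341 for Cnp, against 68 over all positions. Among 7086 genes with at least 100 listed edited reads, the median gene had 64.2% passing and a cover of 56. Mbp ranked 60th of these by listed edited reads, and 0.494% of them had a higher cover.

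**Figure D1:**
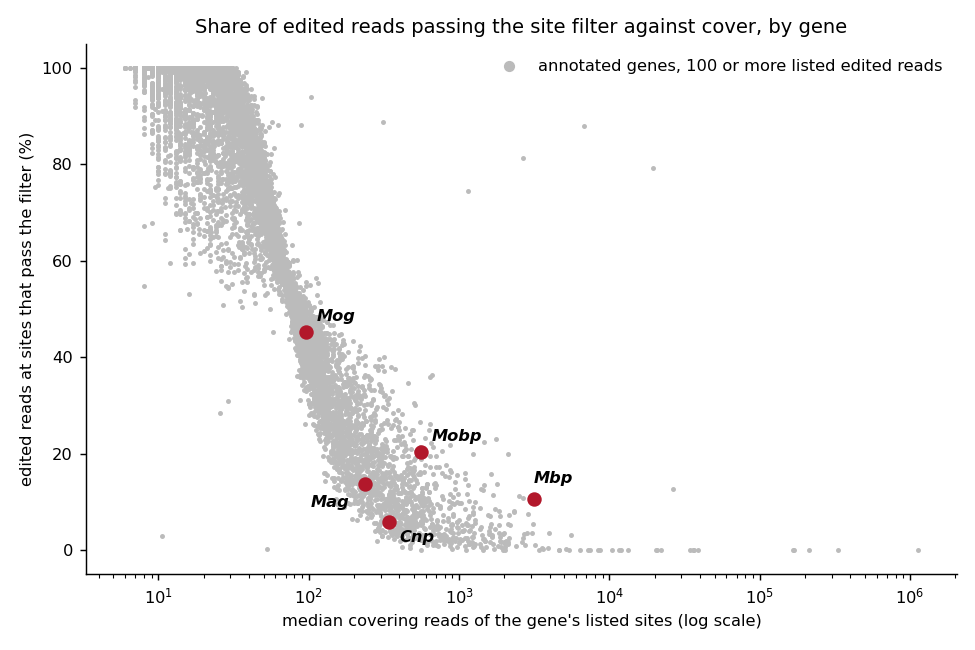
Percent of listed edited reads at sites that pass the filter (y axis) against the median covering reads of a gene's listed sites (x axis, log scale), 9 brain libraries pooled. Grey points are the 7086 genes with at least 100 listed edited reads, and the 5 myelin genes are in red, from Mog with 45.3% passing at a cover of 96 to Mbp with 10.6% at 3142.

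The filter removed exonic edits far more often than intronic ones. Of the exonic edited reads, 2.55% passed in Mbp, 6.02% in Mobp, 24.8% in Mog, 4.59% in Mag and 3.36% in Cnp. Of the intronic edited reads, 74.7% passed in Mbp and all passed in Mobp (214), Mog (38), Mag (44) and Cnp (18). Before the filter, the 3′ UTR held 68.3% of the edited reads of Mbp and 71.8% of those of Mobp, and coding exons held 76.9% of those of Mag. After it, introns held 78.6% in Mbp, 74.8% in Mobp, 60.3% in Mog, 69.8% in Mag and 42.9% in Cnp. Except in Cnp, the clusters of these genes hold mostly edits of thinly covered introns. The median passing intronic site of Mbp had 33 covering reads, and the median failing 3′ UTR site had 3696.

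**Figure D2:**
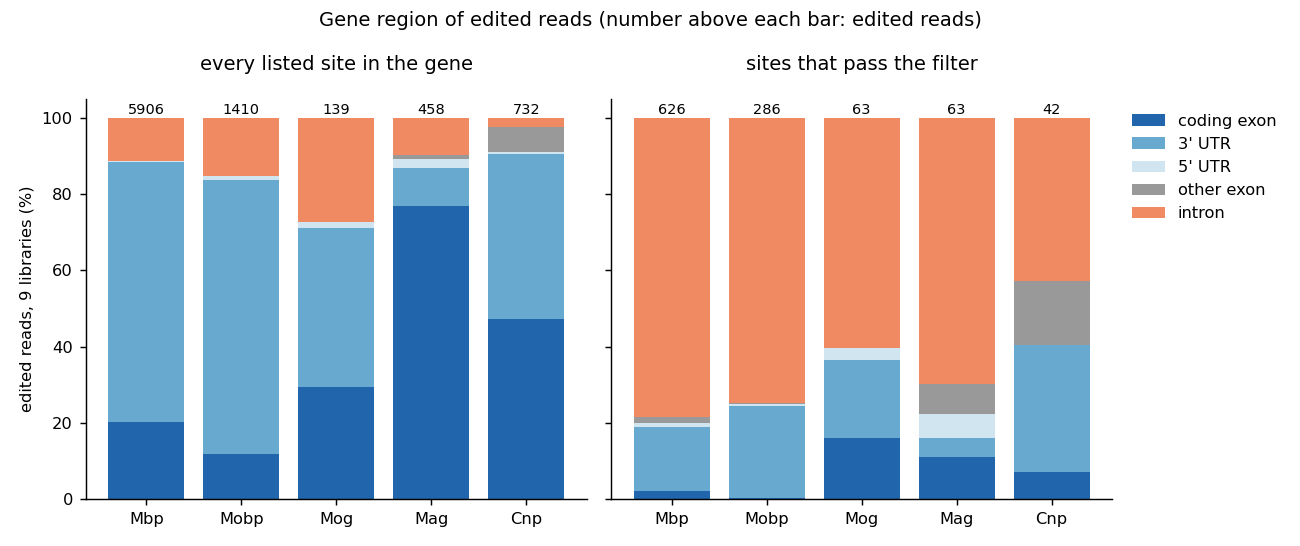
Percent of edited reads (y axis) by gene region for each myelin gene (x axis), at every listed site (left) and at sites that pass the filter (right), 9 libraries pooled. Intron takes 11.2% of the bar of Mbp on the left and 78.6% on the right.

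Mbp was the myelin gene with the most filtered edited reads. It had 79, 63 and 67 edited reads in the RBFOX2-INSCRIBE libraries, 90, 82 and 72 in enzyme-only, and 57, 51 and 59 in buffer-only. As CPM with edgeR's TMM scaling, in which the edited reads of a gene are divided by the summed edited reads in clusters of that library times its TMM factor, these were 235, 189 and 241 (222 ± 28.4, SD, n = 3) in RBFOX2-INSCRIBE, 352, 301 and 290 (314 ± 33.4) in enzyme-only, and 224, 277 and 326 (276 ± 50.9) in buffer-only. The RBFOX2-INSCRIBE libraries were all below the enzyme-only libraries, while buffer-only overlapped both. Divided by the total alone, without TMM, the means were 228 ± 27.8, 309 ± 31.9 and 272 ± 45.6 in the same order of groups, with the same overlaps. By edgeR's quasi-likelihood test, the log2 fold change was -0.51 ± 0.18 (SE) against enzyme-only. It was not called at 0.05, with a Benjamini-Hochberg adjusted p of 0.149 over 9546 genes in edgeR. Enzyme-only against buffer-only gave 0.21 ± 0.18 (adjusted p = 0.730), and RBFOX2-INSCRIBE against buffer-only gave -0.30 ± 0.19 (adjusted p = 0.525, edgeR).

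Mobp, the other gene with enough reads for the test, was placed similarly. It had 98.3, 93.0 and 151 TMM-scaled CPM in RBFOX2-INSCRIBE, 141, 154 and 173 in enzyme-only, and 130, 152 and 166 in buffer-only. One RBFOX2-INSCRIBE library lay within the range of the enzyme-only and buffer-only libraries. The edgeR log2 fold change of RBFOX2-INSCRIBE was -0.47 ± 0.24 against enzyme-only (adjusted p = 0.403) and -0.39 ± 0.25 against buffer-only (adjusted p = 0.526). That of enzyme-only against buffer-only was 0.08 ± 0.24 (adjusted p = 0.948).

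None of the 5 genes was called in any comparison. Of all 9546 genes tested, 1.51% were called in RBFOX2-INSCRIBE against enzyme-only, 0.346% in enzyme-only against buffer-only and 1.67% in RBFOX2-INSCRIBE against buffer-only. An unadjusted edgeR p under 0.05 was reached by 1 of the 2 myelin genes tested in the first comparison and by 0 of 2 in the others, beside 1186, 992 and 1411 of all 9546 genes, and DESeq2 called 0 of 2 in each. RBFOX2-INSCRIBE lay below enzyme-only without overlap in 1 of the 2 genes, Mbp, and in 9.25% of all genes tested. Mog, Mag and Cnp did not pass the filter on low counts (filterByExpr).

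Mog, Mag and Cnp had between 1 and 16 filtered edited reads per library. Mog had 9, 4 and 6 in RBFOX2-INSCRIBE, 6, 16 and 10 in enzyme-only, and 5, 4 and 3 in buffer-only, and as TMM-scaled CPM all enzyme-only libraries, at 23.5 to 58.7, were above all buffer-only libraries, at 16.6 to 21.7. Mag had 5, 5 and 6 in RBFOX2-INSCRIBE, 6, 9 and 6 in enzyme-only, and 11, 6 and 9 in buffer-only. Mag was at 14.9 to 21.6 TMM-scaled CPM in RBFOX2-INSCRIBE libraries, 23.5 to 33.0 in the enzyme-only libraries and 32.6 to 49.7 in the buffer-only libraries, so that RBFOX2-INSCRIBE was lowest without overlap and enzyme-only and buffer-only overlapped. No share of genes separating this way was computed at counts this low, so the separations of Mog and Mag are a description only. Cnp had 6, 4 and 6 in RBFOX2-INSCRIBE, 6, 4 and 4 in enzyme-only, and 1, 6 and 4 in buffer-only, with overlap between all groups. When edgeR was run without the filter on low counts, Mog was at -0.97 ± 0.50 in RBFOX2-INSCRIBE against enzyme-only (adjusted p = 0.559) and 1.07 ± 0.55 in enzyme-only against buffer-only (adjusted p = 0.714), and Mag at -1.24 ± 0.53 in RBFOX2-INSCRIBE against buffer-only (adjusted p = 0.455).

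Counting every listed site in annotated exons, a choice made after seeing the data, restored the reads that the filter removes and left all 5 genes testable among 7024. Mbp then had 623, 638 and 637 edited reads in the RBFOX2-INSCRIBE libraries, 612, 646 and 575 in enzyme-only, and 598, 493 and 425 in buffer-only. Its log2 fold change was 0.05 ± 0.09 in RBFOX2-INSCRIBE against enzyme-only (edgeR adjusted p = 0.918), the opposite sign of the filtered sites. Dropping only the site filter kept the negative sign, at -0.38 with every listed site in clusters. Every listed site within the annotated gene, in or out of clusters, gave -0.08. In enzyme-only against buffer-only, Mbp was at -0.22 ± 0.09 (adjusted p = 0.206) and Mobp at -0.31 ± 0.12 (adjusted p = 0.204, edgeR), again the opposite sign. Mobp had 115, 166 and 126 exonic edited reads in the RBFOX2-INSCRIBE libraries, 143, 147 and 128 in enzyme-only, and 147, 138 and 86 in buffer-only. In RBFOX2-INSCRIBE against buffer-only, Mobp was at -0.35 ± 0.13 (adjusted p = 0.0789) and Mag at -0.43 ± 0.20 (adjusted p = 0.243). By edgeR 0 of the 5 genes were called in any comparison, beside 1.25%, 1.98% and 5.2% of all genes, and 0, 2 and 2 of the 5 had an unadjusted p under 0.05, beside 687, 935 and 1142 of the 7024 genes.

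**Figure D3:**
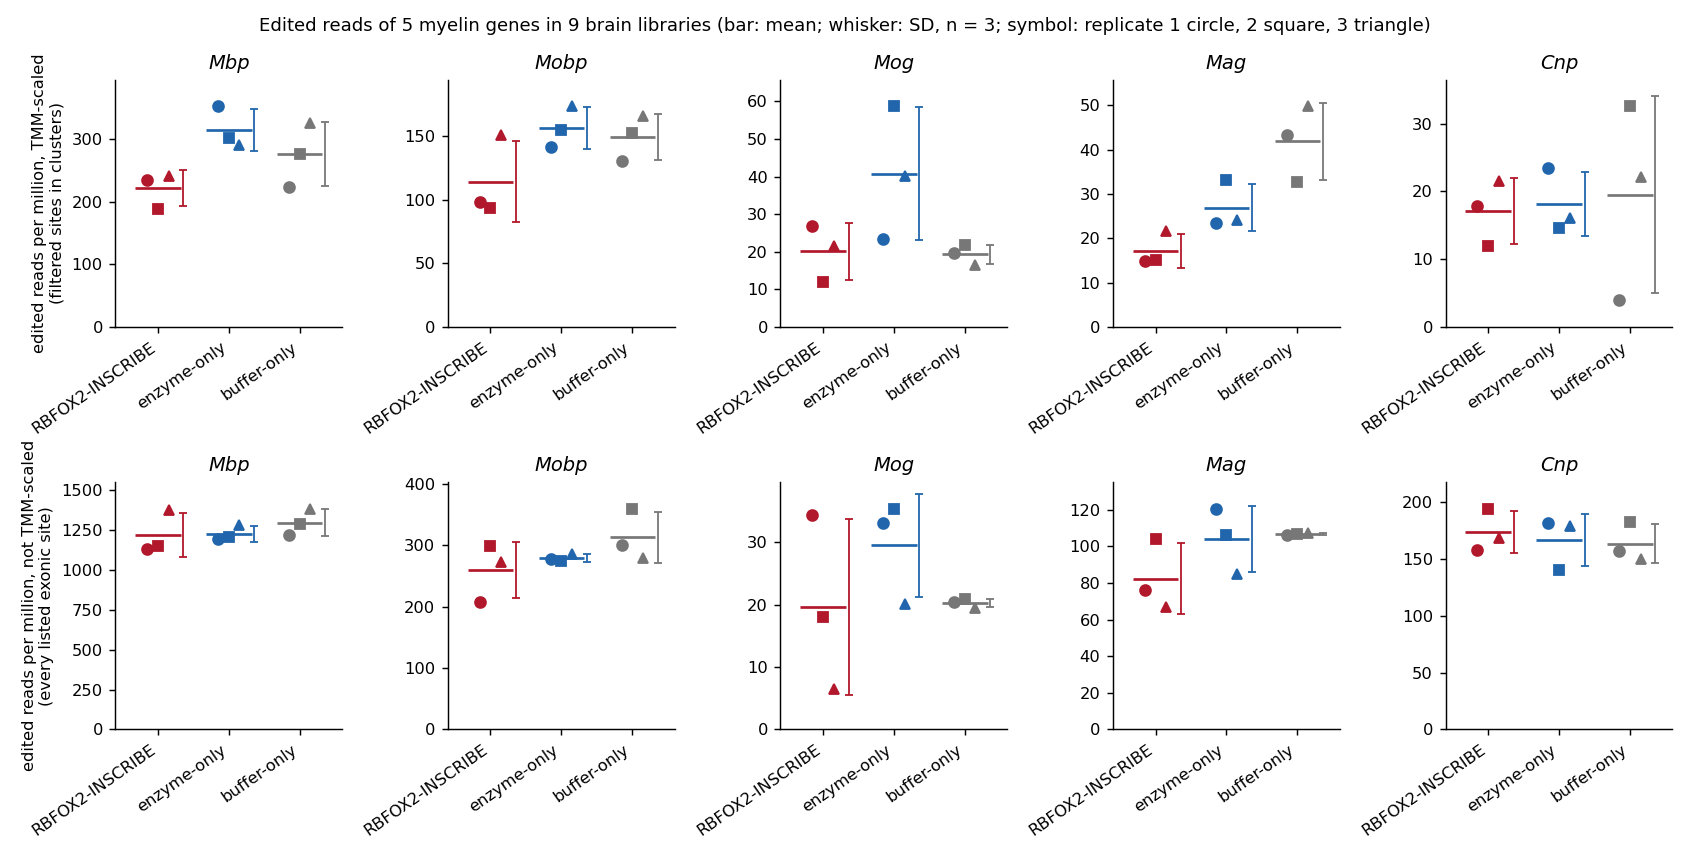
Edited reads as CPM (y axis) for the 5 myelin genes (columns) in RBFOX2-INSCRIBE, enzyme-only and buffer-only libraries (x axis), at filtered sites in clusters (top, per library total of edited reads in clusters times its TMM factor) and at every listed exonic site (bottom, per total of listed exonic edited reads, not TMM-scaled). Points are libraries, bars means and whiskers SD (n = 3); for Mbp the RBFOX2-INSCRIBE points are below the enzyme-only points in the top row, at 189 to 241 against 290 to 352, and overlap them in the bottom row.

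The cover of the listed exonic sites gives a measure of RNA, known at a position only where an edited read was listed. In an analysis added after seeing the data, it was fitted within each gene from positions listed in at least 2 libraries. It was scaled to 2264 exonic positions listed in all 9, leaving out those of lowest and highest mean cover, with the 9 libraries averaging 1. The relative exonic cover of Mbp was 0.988, 0.981 and 1.08 in RBFOX2-INSCRIBE, 1.03, 1.04 and 1.11 in enzyme-only, and 0.868, 0.954 and 0.966 in buffer-only. All enzyme-only libraries were above all buffer-only libraries in 4 of the 5 genes, by 1.14-fold in Mbp, 1.14-fold in Mobp, 1.1-fold in Mag and 1.15-fold in Cnp (exact two-sided permutation p = 0.1 each, the smallest that 3 against 3 libraries allow, Benjamini-Hochberg 0.3 over 48 such tests). The same held for 41.3% of the 865 genes with at least 20 fitted sites in each library, of which Mbp, Mobp and Cnp were 3, and the median ratio over these genes was 1.05, so this non-overlap is not particular to the myelin genes. The ratios of the 4 genes lay between 1.09 and 1.16 when any 1 library was left out. A scale on edited reads gave the other direction. Per 1000 listed edited reads of the library, the mean cover of the 26 Mbp positions listed in all 9 libraries was 6.26, 6.62 and 6.61 in RBFOX2-INSCRIBE, 6.14, 6.33 and 6.86 in enzyme-only, and 6.96, 8.05 and 8.24 in buffer-only. Enzyme-only was then below buffer-only without overlap. That scale also carries the editing rate and is not one of cover alone. Over all annotated exons, enzyme-only had 1.41 times the edited reads per unit of cover of buffer-only. In Mog, whose fit rested on 1 to 10 sites per library, the groups overlapped, at 1.02 in enzyme-only and 1.00 in buffer-only on average. In bulk slices, fewer oligodendrocytes and less RNA per oligodendrocyte cannot be told apart.

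Against enzyme-only, the exonic cover of RBFOX2-INSCRIBE was 0.959-fold in both Mbp and Mobp with overlap, and 0.924-fold in Mag and 0.925-fold in Cnp without overlap (exact permutation p = 0.1 each), beside 53.6% of the 865 genes that were lower without overlap and a median ratio of 0.934. With the scale taken from all 3892 exonic positions listed in the 9 libraries, whatever their cover, the Mag libraries overlapped and the ratio was 0.915. The part of exonic cover in the filtered edited reads of these genes was not tested.

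Edited reads per unit of exonic cover were then set against those of exons at large. Over all annotated exons, enzyme-only had 1.41 times the edited reads per unit of cover of buffer-only, and RBFOX2-INSCRIBE 1.26 times (exact permutation p = 0.1 each, no overlap). In Mbp the ratio of enzyme-only to buffer-only was 1.17 (exact permutation p = 0.1, no overlap), in Mag 1.25 and in Cnp 1.25, with overlap in Mag and Cnp. In Mobp the rates were 1.09 ± 0.0718 in enzyme-only and 0.988 ± 0.139 in buffer-only, with overlap, and in Mog the ratio was 1.99 without overlap, on few sites. The share of the 865 genes that separate in this rate was not computed, and all exons together also separated. Divided by the rate of all exons, Mbp was at 0.919, 0.940 and 1.02 in RBFOX2-INSCRIBE, 0.933, 0.928 and 0.927 in enzyme-only, and 1.13, 1.08 and 1.15 in buffer-only. This relative rate was 0.828-fold in enzyme-only against buffer-only in Mbp and 0.785-fold in Mobp, without overlap in either (exact permutation p = 0.1 each, Benjamini-Hochberg 0.3), beside 12.6% of the 865 genes and a median ratio of 1.02. It was 0.884-fold in Mag and 0.890-fold in Cnp with overlap, and 1.41-fold in Mog, on 3 to 19 edited reads per library, also with overlap. Between RBFOX2-INSCRIBE and enzyme-only the relative rates of all 5 genes overlapped, with ratios from 0.670 in Mog to 1.13 in Cnp.

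**Figure D4:**
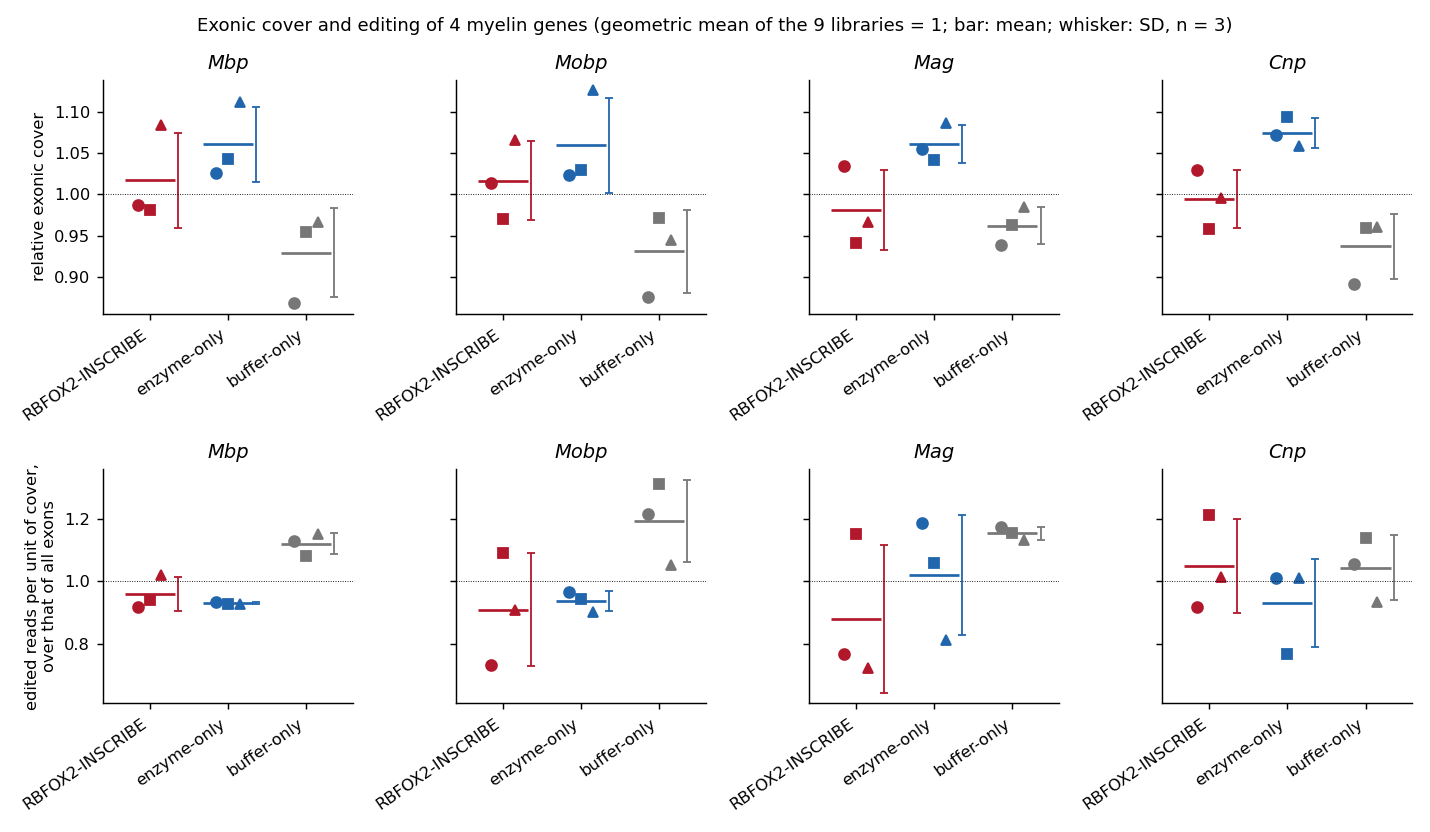
Relative exonic cover, scaled to exonic positions listed in all 9 libraries (top), and edited reads per unit of exonic cover over that of all annotated exons (bottom) for Mbp, Mobp, Mag and Cnp in the 9 libraries, grouped on the x axis; the geometric mean of the 9 libraries is 1 (dotted line), points are libraries, bars means and whiskers SD (n = 3). In all 4 genes the enzyme-only points are above the buffer-only points in the top row, by 1.1-fold to 1.15-fold, and in Mbp and Mobp they are below them in the bottom row.

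The base before the edited C was compared next. Of the filtered sites of the 5 genes, 58.0%, 57.0% and 65.5% had an A or U before the C in RBFOX2-INSCRIBE, 61.8%, 64.9% and 60.8% in enzyme-only, and 55.1%, 48.8% and 52.2% in buffer-only, on 84 to 134 sites per library. Over all filtered sites RBFOX2-INSCRIBE libraries had 61.5% to 65.8%, enzyme-only libraries 61.0% to 63.2% and buffer-only libraries 51.7% to 52.5%. At the listed sites of the 5 genes that failed the filter, the shares were lower: 46.3% to 49.0% in RBFOX2-INSCRIBE libraries, 45.4% to 50.4% in the enzyme-only libraries and 40.6% to 43.7% in the buffer-only libraries. Over all failing sites they were lower too, at 53.3% to 56.8%, 54.6% to 55.8% and 45.6% to 46.3% in the same order of groups. For Mbp alone, the filtered share was 59.6% ± 2.49 in enzyme-only and 52.2% ± 3.97 in buffer-only (SD, n = 3), without overlap (exact permutation p = 0.1, Benjamini-Hochberg 0.5 over 20 such tests), and RBFOX2-INSCRIBE overlapped enzyme-only at 55.6% ± 7.34. How many other genes separate in this share was not counted, and all filtered sites together also separated.

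The number of filtered sites and their intronic share were set side by side. The number of Mbp sites averaged 63.0 ± 7.55 in RBFOX2-INSCRIBE, 72.7 ± 11 in enzyme-only and 50.3 ± 3.06 in buffer-only. Mobp averaged 31.3 ± 6.11 sites in RBFOX2-INSCRIBE, 38.0 ± 4.36 in enzyme-only and 27.3 ± 4.16 in buffer-only. These numbers are not scaled to depth. Divided by all filtered sites of each library, enzyme-only and buffer-only overlapped in both genes, and RBFOX2-INSCRIBE was below enzyme-only without overlap in Mbp. Introns held 76.0% ± 2.53 of the edited reads of Mbp in RBFOX2-INSCRIBE, 77.6% ± 3.14 in enzyme-only and 83.9% ± 2.05 in buffer-only. For this share enzyme-only and buffer-only did not overlap (exact permutation p = 0.1, Benjamini-Hochberg 0.5), and RBFOX2-INSCRIBE and enzyme-only did. How many other genes separate in the intronic share or the scaled number of sites was not counted, so neither can be called particular to Mbp. Edited reads per 100 covering reads at the filtered Mbp sites were 2.93 ± 0.177 in RBFOX2-INSCRIBE, 2.87 ± 0.317 in enzyme-only and 2.82 ± 0.0943 in buffer-only, with overlap between all 3, a value that the filter bounds.

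Before the filter, listed positions of Mbp recurred between libraries more often than positions at large. The annotated gene lies on the plus strand of chromosome 18 from 82475146 to 82585637. Of 1321 listed Mbp positions, 461 (34.9%) were listed in 3 or more libraries and 26 in all 9, against 4.98% of all positions in 3 or more. Of the other genes, 14.9% of the listed Mobp positions, 12.5% of Cnp, 4.38% of Mag and 0.962% of Mog were in 3 or more. Among the 5 genes this was also the order of median cover, from 3142 reads in Mbp to 96 in Mog. Over all positions the median cover was 68. The part of cover in the recurrence was not tested. The most edited of the 26 Mbp positions, at 82584408 on chromosome 18 in the 3′ UTR, had 8 of 4189, 4 of 4465 and 9 of 3797 edited reads in the RBFOX2-INSCRIBE libraries, 3 of 3719, 7 of 4075 and 4 of 3699 in enzyme-only, and 5 of 4090, 3 of 3893 and 1 of 3096 in buffer-only. Its edited share was at most 0.237%, and the groups overlapped.

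The confident cluster lists, which keep clusters found in all 3 replicates of a group, held few myelin clusters. There were 2 of 5177 for RBFOX2-INSCRIBE, 3 of 4542 for enzyme-only and 2 of 2092 for buffer-only, and removal of background clusters by the study left the 2 and the 3 in place. All lay in Mbp or Mobp, and none in Mog, Mag or Cnp. The intronic Mobp cluster around the site printed above was in both the RBFOX2-INSCRIBE and the enzyme-only list, with the same C edited in all 6 libraries. The RBFOX2-INSCRIBE list had 1 Mbp cluster, intronic, at 82566106 to 82566255 on chromosome 18; the enzyme-only list had 1 intronic and 1 3′ UTR cluster and the buffer-only list 2 intronic ones. In none of these 5 Mbp clusters was 1 C edited in all 3 libraries of its group, and the edits inside them rested on 1 to 3 reads in each library that had any.

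None of the confident myelin clusters held UGCAUG on its strand, within the cluster or within 100 bases on either side. Of all confident clusters, 8.20% held it in RBFOX2-INSCRIBE, 1.94% in enzyme-only and 1.08% in buffer-only, and 21.6%, 8.51% and 7.48% did within 100 bases. The myelin clusters are too few, at 2 or 3 per list, for a comparison with these shares. Around the recurrent Mobp site, 2 matches lay within 2000 bases on either side, the nearest 1376 bases away.

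The deposited depth of the Mbp clusters, whose counting is not given in the sources used here, was far above the cover of the cytidines in them. The median intronic Mbp cluster had a deposited depth of 2481 and 33.0 reads per C, against 58.8 and 15.4 over all clusters. In Mog exons the pair was 62.3 and 64.1. A single edited read supported 78.5% of the Mbp clusters, 82.4% of Mobp, 70.8% of Mog, 84.3% of Mag and 56.5% of Cnp, against 81.6% of all clusters.

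Other genes of myelin and oligodendrocytes were set beside the 5. Of 50 listed symbols, 2 of which name the same gene (Sept4), 31 had enough filtered reads for the test. In RBFOX2-INSCRIBE against enzyme-only 0 of the 31 were called, 25 had a negative log2 fold change, and the median was -0.43, beside -0.04 over all 9546 genes. An unadjusted edgeR p under 0.05 was reached by 10 of the 31 and by 1186 of all genes, and 12 of the 31 were lower in RBFOX2-INSCRIBE without overlap, beside 9.25% of all genes. The smallest p were those of Gpr37, a receptor of oligodendrocytes (-1.16 ± 0.43, adjusted p = 0.180), Sirt2, a deacetylase (-1.06 ± 0.40, adjusted p = 0.187), Cntn2, an adhesion protein of myelinated axons (-0.67 ± 0.26, adjusted p = 0.228), and the kinase gene Cdk18 (-0.95 ± 0.38, adjusted p = 0.253, all edgeR). Gpr37 had 8, 10 and 7 edited reads in the RBFOX2-INSCRIBE libraries, 16, 12 and 18 in enzyme-only, and 8, 6 and 6 in buffer-only.

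In the other comparisons the medians of the 31 genes were 0.22 in enzyme-only set against buffer-only and -0.23 in RBFOX2-INSCRIBE against buffer-only, with 0 called in each and medians of -0.0046 and -0.03 over all genes. Named by the smallest p, enzyme-only against buffer-only gave Gsn (-1.35 ± 0.55, adjusted p = 0.297), Gjc3 (0.90 ± 0.40, adjusted p = 0.383) and Gpr37 (0.87 ± 0.45, adjusted p = 0.492), among others. RBFOX2-INSCRIBE against buffer-only gave Sirt2 (-1.03 ± 0.41, adjusted p = 0.184), the lineage factor Sox10 (-1.05 ± 0.44, adjusted p = 0.205), Sept4 (-0.71 ± 0.40, adjusted p = 0.428) and Opalin (0.92 ± 0.56, adjusted p = 0.497, all edgeR). With every listed exonic site, 36 were tested, the medians were -0.05, 0.06 and 0.02 in the same order of comparisons, and 0, 1 and 0 genes were called. In RBFOX2-INSCRIBE against enzyme-only, 25 of the 36 were still negative, beside 3548 of all 7024 genes. Summed over the list without TMM scaling, exonic CPM was 3141 to 3532 in RBFOX2-INSCRIBE libraries and 3770 to 3870 in enzyme-only libraries, without overlap. Buffer-only libraries had 3141 to 3382. Markers of oligodendrocyte precursors were also lower there without overlap, at 541 to 607 in RBFOX2-INSCRIBE and 691 to 734 in enzyme-only. The 5 myelin genes overlapped, at 1605 to 1889 and 1759 to 1851. Lists of neuronal, astrocyte, microglial and endothelial markers overlapped as well, so this separation is not particular to the myelin genes.

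**Figure D5:**
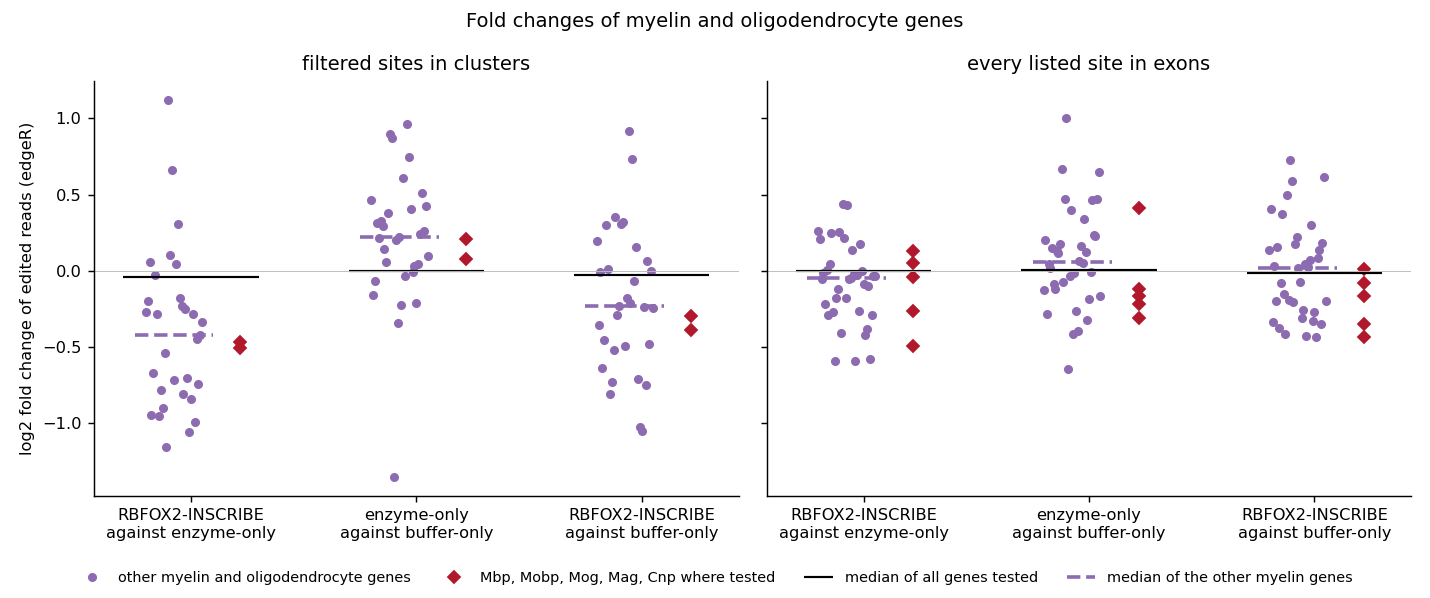
edgeR log2 fold changes of edited reads (y axis) in the 3 comparisons (x axis) for the other myelin and oligodendrocyte genes (violet points, dashed median), the 5 myelin genes where tested (red diamonds) and all genes tested (black median), at filtered sites in clusters (left) and every listed exonic site (right). In RBFOX2-INSCRIBE against enzyme-only the violet median is -0.43 on the left and -0.05 on the right.

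Markers of other cell types were read in the same libraries. Summed over the list, as CPM of the library total without TMM scaling, the other myelin genes had 2735 to 2863 CPM at filtered sites in RBFOX2-INSCRIBE libraries, 3189 to 3341 CPM in the enzyme-only libraries and 2919 to 3142 CPM in the buffer-only libraries, and the 8 neuronal markers had 5247 to 5695 in RBFOX2-INSCRIBE libraries, 4756 to 5130 in the enzyme-only libraries and 4533 to 5142 in the buffer-only libraries. The 8 astrocyte markers had 1727 to 2326 in RBFOX2-INSCRIBE libraries, 1899 to 2062 in the enzyme-only libraries and 1421 to 1527 in the buffer-only libraries. Endothelial markers had 297 to 355 in RBFOX2-INSCRIBE libraries and 371 to 375 in enzyme-only libraries, lower without overlap like the other myelin genes. Precursor and microglial markers overlapped between these groups. In RBFOX2-INSCRIBE against enzyme-only the median log2 fold change was 0.25 in 7 neuronal markers, -0.06 in 7 astrocyte markers, -0.31 in 7 markers of oligodendrocyte precursors, -0.59 in 3 of microglia and -0.27 in 2 of endothelial cells, with 0 called by edgeR. An unadjusted p under 0.05 was reached by 4 of these neuronal markers (Map2 at 0.30, Snap25 at 0.32 and Rbfox3 at 0.25, higher, and Stmn2 at -0.95, lower), by 2 of the precursor markers (Lhfpl3 at 0.48, higher, and Ptprz1 at -0.55, lower), by the microglial marker Cx3cr1 (-0.96, lower) and by no astrocyte or endothelial marker. In RBFOX2-INSCRIBE against buffer-only, 3 neuronal markers and 1 astrocyte marker were called higher, beside 129 of all 9546 genes. In enzyme-only against buffer-only, 1 astrocyte marker was called higher, beside 24 genes. With every listed exonic site, RBFOX2-INSCRIBE against enzyme-only called 1 neuronal marker higher and 1 precursor marker lower. Of all 7024 genes, 80 were higher and 8 lower there. Against buffer-only, such sites called 4 neuronal and 2 astrocyte markers higher in RBFOX2-INSCRIBE (276 genes) and 1 of each in enzyme-only (88 genes). The 5 choroid plexus markers had between 0 and 5.24 CPM in every library. The part of cell composition in the myelin values was not tested.

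The summed filtered values of the 5 genes were 393, 321 and 456 TMM-scaled CPM in RBFOX2-INSCRIBE, 564, 561 and 544 in enzyme-only, and 421, 516 and 580 in buffer-only. Over the 9 libraries, the genes with the most similar pattern were Aldh1l1 (Pearson r = 0.947), Wapl (0.936), Dmac2 (0.929), Atp1b1 (0.922) and Scg5 (0.915), given as a description. They were picked as the highest of all genes tested and had few edited reads per library, from 1 to 12 in Dmac2 to 30 to 63 in Scg5. Aldh1l1, with 10 to 18, is on the list of astrocyte markers. The 31 other myelin genes had a median r of 0.361, beside 0.031 over all genes. These points share libraries, and 3 genes that share sites with Mobp were left out.

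Depth differed between groups. The filtered sites held 295672 to 339567 edited reads in RBFOX2-INSCRIBE libraries, 267277 to 290808 in enzyme-only libraries and 193252 to 262593 in buffer-only libraries, without overlap, so libraries are compared by CPM, TMM-scaled for single genes and for the sum of the 5. The number of sequenced reads is unknown here. No 2 libraries looked like copies, with 0.588% to 1.28% of filtered sites shared by any pair.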

How the data were processed

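Per the methods of the study, reads of the brain libraries (single-end, stranded kit) were trimmed with cutadapt, filtered of repeats and aligned with STAR 2.5.2 to mm10, C-to-U sites were called with SAILOR, and clusters with FLARE (FDR 0.1, merged within 15 nt). The deposited site lists give edited and covering reads, the fraction edited and a confidence score per site. The deposited cluster tables hold counts of edited reads, and the authors' confident lists hold a signal, a depth whose counting is not given in the sources used here, with the adjusted p of each merged window. No deposited value is normalised, and 0 columns were left unused.

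The members and lists were chosen with earlier results of these data known. Sites that pass the filter of the study (score over 0.5, fraction under 0.8) and lie inside clusters of any brain library, were summed per gene label and tested with edgeR 4.0.16 (quasi-likelihood, TMM, filterByExpr, 9 libraries in 1 fit, Benjamini-Hochberg). DESeq2 1.42.0 was an alternative. CPM of single genes and of the 5 summed are TMM-scaled, and sums over marker lists are not. Per-library measures were compared by exact two-sided permutation. Regions came from GENCODE M21. All 5 members are named, with, per comparison, the 4 other myelin genes of smallest p (1 gene that the rule names is not reported here), the 3 filtered sites per member in the most libraries, and the 5 most similar genes. Scripts were tested on simulated data. HEK293XT libraries, a human line, were not used here. The depth is 193252 to 339567 filtered edited reads per library, so most sites rest on 1 edited read.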

Additional observations from a re-analysis of the deposited data

How the results depend on the processing

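No myelin gene was called in any comparison under the alternatives run for low-count filter, normalisation, DESeq2, site filter, cover minimum, cover offset, annotation, 6-library fits and single libraries left out. Correlations of deviations between libraries of the same replicate number were -0.0726 to 0.0911. Pairs of different numbers were not set beside them and read counts are low, so they cannot tell whether equal numbers share a mouse. With the replicate block 0 members were called in each comparison, with Mbp at -0.51 in RBFOX2-INSCRIBE against enzyme-only, and exact tests within replicate numbers cannot go below 0.25. In all, 32 values changed sign, none of them a count of called genes or of clusters.

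Chosen after seeing the data, every listed site in annotated exons gave a log2 fold change of 0.0516 for Mbp in RBFOX2-INSCRIBE against enzyme-only, and of -0.22 for Mbp and -0.31 for Mobp in enzyme-only against buffer-only. Every listed site in the annotated gene gave -0.15 and -0.19 there. Without 1 library, Mobp lay between -0.0304 and 0.147 there.

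The other sign changes are differences of means (RBFOX2-INSCRIBE minus enzyme-only, or enzyme-only minus buffer-only) that overlapped between groups. Covering reads per site in RBFOX2-INSCRIBE minus enzyme-only were 3.98 in Mbp with every listed site and -0.999 in Mobp with a minimum of 20 covering reads. Without 1 library they lay between -3.3 and 0.762 in Mbp and between -1.43 and 2.9 in Mobp. In enzyme-only minus buffer-only they were -1.45 in Mbp with every listed site, between -2.2 and 1.86 in Mbp and between -3.39 and 1.66 in Mobp without 1 library. Edited reads per 100 covering reads in RBFOX2-INSCRIBE minus enzyme-only were -0.225 in Mbp with every listed site, between -0.0852 and 0.231 in Mbp and between -0.281 and 0.543 in Mobp without 1 library. In enzyme-only minus buffer-only they were -0.358 in Mobp with every listed site, between -0.119 and 0.197 in Mbp and between -0.439 and 0.364 in Mobp without 1 library. The intronic percent in RBFOX2-INSCRIBE minus enzyme-only lay between -2.93 and 0.128 in Mbp and between -1.3 and 9.76 in Mobp without 1 library, and the percent with A or U before the C between -4.39 and 10.6 in Mobp. The cause of these changes was not tested. Most filtered sites rest on 1 edited read, which limits every value of Mog, Mag and Cnp.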

Other observations

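The 10 letters cttccgatct, which lie just before the edited C of the recurrent Mobp site and are also the last letters of the sequencing adapter of the library kit, were found within 20 bases before the C at 8 of 1956700 filtered positions. Of the 436 filtered positions that passed in 7 or more libraries, 1 had them, the Mobp site. The part of this match in the recurrence was not tested.

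The cover of exonic positions in enzyme-only was above that in buffer-only by 1.09-fold to 1.13-fold in Mbp, Mobp, Mag and Cnp, without overlap, when scaled on all 3892 exonic positions listed in the 9 libraries. On that scale the relative editing rate of enzyme-only against buffer-only was 0.841-fold in Mbp and 0.796-fold in Mobp, again without overlap.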
